A study of Mus musculus with 9 samples.

Results

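The genes described are the machinery of macroautophagy, 40 named genes for initiation, lipidation and cargo binding, of 55401 gene IDs in the count table. They were chosen by name, with earlier results of these data known. All 40 were found in the table and passed the filter on low counts. Their RNA was counted by poly(A) sequencing of macrophages drawn into the mouse peritoneal cavity by thioglycollate, a sterile irritant. The cells had adhered briefly in serum-containing medium, and the labels name no added stimulus. The 9 libraries were 3 from mice homozygous for Stat6 S807E (SE), 3 from mice homozygous for Stat6 S807A (SA) and 3 from wild type mice (WT). STAT6 carries signals of interleukin-4 and interleukin-13. In SE a serine is replaced by glutamate, which carries a negative charge, and in SA by alanine, which cannot be phosphorylated. Strain, sex, age and the way the alleles were made are not given in the sources. No label says whether libraries of a genotype came from different mice, and p-values therefore refer to the spread among these libraries, which may be technical.

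In autophagy a double membrane closes around cytoplasm, damaged organelles or microbes and fuses with lysosomes. The ULK1 kinase complex starts the process and the class III PI3-kinase complex marks the membrane with a lipid. ATG9 vesicles, ATG2 and WIPI proteins then supply membrane. An enzyme cascade then couples proteins of the ATG8 family to the membrane, where cargo receptors bind them. Macrophages use parts of the same machinery to mature phagosomes.

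Library totals ran from 17286617 to 20513292 counts in SE, 19141473 to 22295907 in SA and 17514211 to 24618608 in WT. Values are in CPM, the usual depth-scaled count unit, with library totals scaled by the trimmed mean of M values (TMM). The edited gene, Stat6, had 291, 284 and 312 CPM in SE, 195, 200 and 200 CPM in SA, and 198, 201 and 187 CPM in WT. All 8 macrophage markers, such as Adgre1 and Csf1r, were detected, with a summed level of 18656 to 21433 CPM in SE, 18783 to 19533 in SA and 18608 to 23799 in WT. Of the 8, 2 were called in SE. Mertk was 1.27-fold lower in SE relative to WT (edgeR adjusted p = 0.0195), and Fcgr1 was 1.23-fold lower relative to WT (edgeR adjusted p = 0.0157) and 1.46-fold lower relative to SA (edgeR adjusted p = 6.44e-05). Of other cell types, the 10 neutrophil markers summed to 191 to 212 CPM in SE, 167 to 192 in SA and 166 to 189.5 in WT, nearly all of it Csf3r, with Ly6g and Retnlg at 0 counts in every library. The 5 eosinophil markers summed to 21.1 to 28.0 CPM in SE, 22 to 26.8 in SA and 25.2 to 28.5 in WT, and Ccr3 among them was 1.74-fold lower in SE relative to SA (edgeR adjusted p = 0.00596). T and NK cell markers summed to 3.93 to 4.46 CPM in SE, 5.34 to 5.77 in SA and 5.31 to 6.22 in WT, mostly Cd4, with Cd3e, Cd3g and Ncr1 at 0 counts. B cell markers summed to 0.465 to 0.784 CPM in SE, 1.17 to 1.44 in SA and 0.999 to 1.72 in WT, and Ighm was lower in SE relative to SA (edgeR adjusted p = 0.0254). The 10 mesothelial and fibroblast markers summed to 5.99 to 9.95 CPM in SE, 34.2 to 38.6 CPM in SA and 2.56 to 3.96 CPM in WT, through Col1a1, Col1a2 and Col3a1. In bulk RNA, fewer cells of a type and less RNA per cell cannot be told apart. WT2 and SE3 stood at one end of the third principal component, with scores of -16.24 for WT2 and -17.09 for SE3, and WT1 and SE2 at the other, with 13.29 for WT1 and 14.85 for SE2. Results that rest on those libraries are given with and without them. These 2 pairs were picked from the same counts after the data were seen, so calls made without a pair are descriptions only.

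The whole machinery was transcribed in every genotype, over a 126-fold range of levels. The lowest count of any of the 40 genes in any library was 112, for Atg10. Per kilobase of annotated exons, Gabarap, an ATG8 protein that acts in closing and fusing autophagosomes, was highest, at a mean over the 9 libraries of 214 CPM per kilobase (range 199.8 to 229). Sqstm1, the cargo receptor p62, followed with 153 CPM per kilobase (141 to 172), then Gabarapl1, another ATG8 protein, with 74.7 (68.1 to 80.3). These ranges did not overlap. Vmp1, a membrane protein of the endoplasmic reticulum needed to form autophagosomes, came next with 33.8 CPM per kilobase (28.3 to 38.5). Below it, Map1lc3b, the ATG8 protein LC3B, with 22.9 CPM per kilobase (20.7 to 25.9), Nbr1, a cargo receptor, with 22.4 (20.7 to 25.1), and Atg5, of the lipidation ligase, with 21.1 (19.1 to 23.0) did not differ beyond their spread. The lowest was Atg16l2, a relative of the ligase subunit ATG16L1, at 1.71 CPM per kilobase (1.48 to 1.98). The median of the 40 genes was 9.84 CPM per kilobase, against 4.69 for the 13489 tested genes with a known length.

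Levels per kilobase depend on the length used. Map1lc3b has 7517 annotated exonic bases but 2532 in its principal transcript, and its level was 68.0 CPM per kilobase with the shorter length. Its place among the 40 was then 4 instead of 5, and Wipi2 moved to place 9 from 30. Gabarap, Sqstm1 and Gabarapl1 kept places 1, 2 and 3, and Atg16l2 kept place 40. This choice of length was made after the data were seen.

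**Figure D1:**
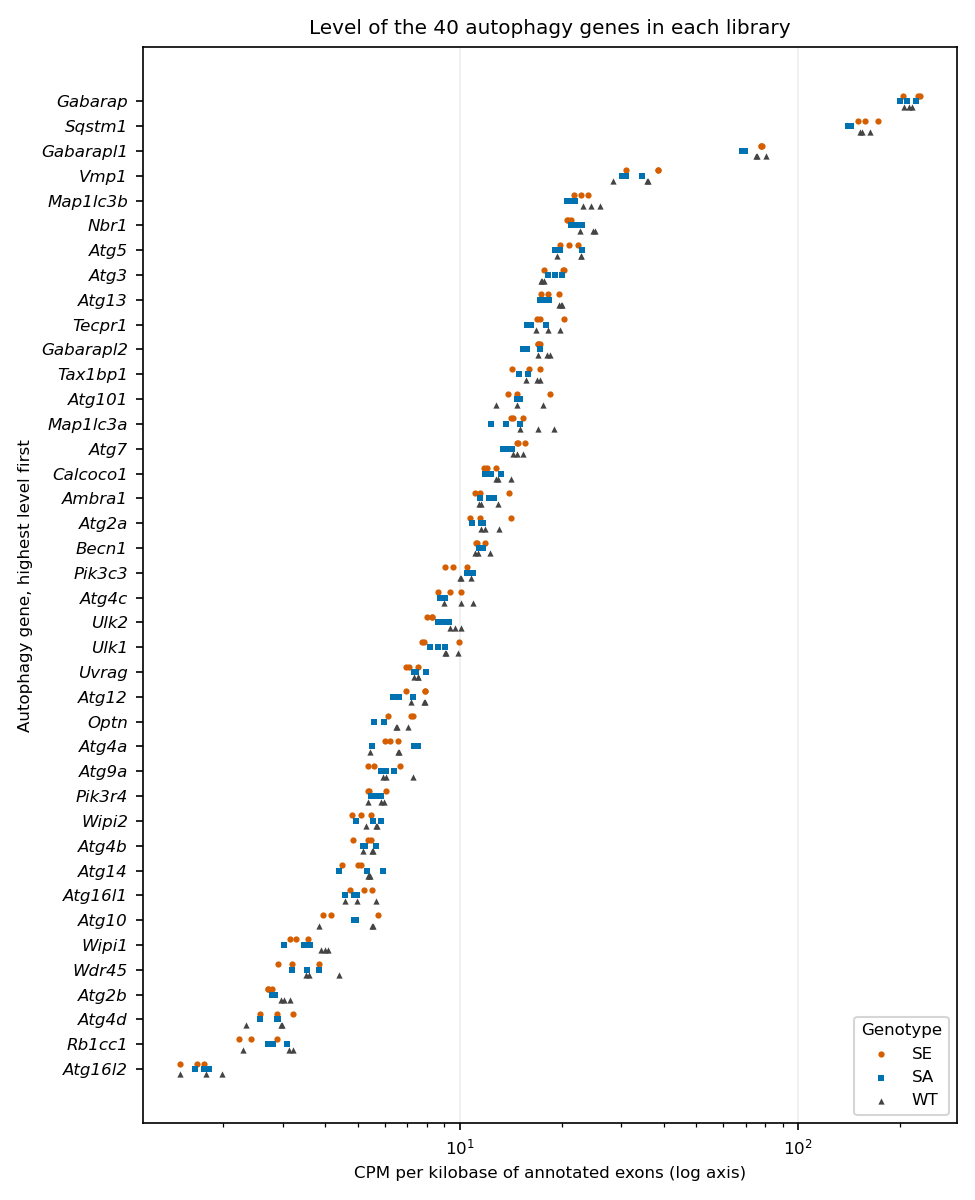
CPM per kilobase of annotated exons (log axis) for each of the 40 autophagy genes in each of the 9 libraries, with SE as circles, SA as squares and WT as triangles. Points of one gene lie close together, and the order runs from Gabarap at 214 to Atg16l2 at 1.71 CPM per kilobase.

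Promoter windows of 34 of the 40 genes, from 250 bases before to 50 after the start in the RefSeq annotation of GRCm38.p6 (the mm10 assembly), were searched on both strands. Of these genes 29 had 1 window, 4 had 2 and 1 had 3, and a match in any window counted. TCACGTG is the core of the element bound by TFEB, which drives lysosomal and autophagy genes. It was found for 3 of the 34 genes, 8.82%, against 4.29% of all 27025 genes with a window. The motif holds a CG, and the windows of these genes had a median of 20 CG pairs and 60.2% GC, against 7 CG pairs and 52.7% GC over all windows, so the shares do not compare like windows. These were Atg7, the activating enzyme of the lipidation cascade, Atg3, the conjugating enzyme that takes ATG8 proteins from it, and Atg14, which directs the PI3-kinase complex to forming autophagosomes. They are shown because they are the members that hold this core, with the matching bases in capitals, each read along the strand of its gene, at chr6:114670953-114670979 (plus strand) for Atg7, chr16:45158724-45158774 (plus strand) for Atg3 and chr14:47568419-47568445 (minus strand) for Atg14.
Atg7: atattggtggTCACGTGtgcagtaagt
Atg3: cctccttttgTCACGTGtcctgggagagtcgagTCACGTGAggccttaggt
Atg14: aacaaaatccCACGTGActggccctga
The Atg3 window held 3 matches, of which the last pair overlaps on opposite strands. In GENCODE, Atg7 begins at base 114643097 of its chromosome, and Atg14, on the minus strand, begins at base 47570649. Their matches therefore lie at starts inside the annotated genes and not at the outermost start. The difference in GC given above also means that the shares for the STAT spacings do not compare like windows, and they rest on few genes. The spacing preferred by STAT6, TTC and GAA with 4 bases of any kind between them, was found for 1 of 34 genes, 2.94%, against 8.01% of all genes. That gene was Gabarap, with the match from base 32 after the start, at chr11:69991391-69991419 (plus strand). TTCNNNGAA, the general STAT spacing, was found for Gabarap, Gabarapl1, Nbr1 and Wipi1, 11.8% of 34 genes against 9.55% of all genes. The Gabarap match to the general spacing begins 56 bases before the start, at chr11:69991304-69991332, and that of Nbr1 111 bases before the start, at chr11:101552533-101552561, each on the plus strand. In GENCODE, Gabarap begins at base 69991143 of its chromosome and Nbr1 at base 101552149. These matches, and the STAT6 match of Gabarap, therefore lie at starts inside the annotated genes and not at the outermost start.
Gabarap, STAT6 spacing: ggtttttcagTTCACTCGAAacaacagca
Gabarap, TTCNNNGAA: ccaacgtaatTTCCGAGAActgcagaact
Nbr1, TTCNNNGAA: gagctgtgggTTCCAGGAAgactacaatt
They are shown because the edited gene encodes a STAT protein. Each match describes these letters only. The window of Ulk2, which differed between SE and WT below, held none of the 3 motifs.

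SE and WT macrophages differed in 1 of the 40 genes. Ulk2, a kinase related to ULK1 that starts autophagy, fell to 47.9, 49.4 and 49.4 CPM in SE, against 57.7, 56.0 and 60.3 CPM in WT. All SE libraries lay below all WT libraries, and the SA libraries, at 55.7, 53.8 and 51.5 CPM, lay between them, with no overlap with either. Ulk2 (ENSMUSG00000004798, mm10 chromosome 11, 61775649 to 61855073, minus strand) was 1.19-fold lower in SE than in WT, a log2 change of -0.25 ± 0.06 (SE of the estimate, edgeR adjusted p = 0.0303). A gene is named as called where edgeR's quasi-likelihood test gave p under 0.05 after Benjamini-Hochberg adjustment across the 13501 tested genes. Between SE and WT 5.04% of these were called, 2.35% as higher and 2.69% as lower, and the 40 genes had 1 call, 2.5%. At an unadjusted p under 0.05, 5 of the 40 were lower and 1 higher, against 9.25% of all genes lower and 9.02% higher. SE and WT libraries did not overlap for 5 genes that were lower and 1 that was higher, against 10.4% of all genes lower, 10.1% higher and 20.5% in either direction. DESeq2 called 2 as lower, Ulk2 and Nbr1, where it called 388 of 12716 genes as lower. The macrophage markers Mertk and Fcgr1 were also lower in SE, as given above, and their part in these differences was not tested. The log2 changes were below 0 for 28 of the 40 genes, against 50.8% of all genes.

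The Ulk2 call was close to the threshold. With 1 library left out, the edgeR adjusted p was 0.0606 without WT1, 0.174 without WT3, 0.129 without SE1 and 0.0595 without SE2, and the call ended. It also ended without WT1 and SE2 together (edgeR adjusted p = 0.101) and with SE and WT fitted alone (edgeR adjusted p = 0.0799), and held without WT2 and SE3 (edgeR adjusted p = 0.00917). The log2 change ran from -0.28 to -0.22 over the 18 alternatives, and its edgeR or DESeq2 adjusted p from 0.00917 to 0.174.

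SA and WT macrophages differed in 0 of the 40 genes by edgeR and in 0 by DESeq2, where edgeR called 4.07% of all tested genes, 1.97% as higher and 2.1% as lower. At an unadjusted p under 0.05, 11 of the 40 were lower and 0 higher, against 7.0% of all genes lower and 6.69% higher. The log2 changes leaned below 0 for 33 of the 40 genes, against 49.6% of all genes, with a median of -0.08 against 0.001 over all genes. All 5 ATG8 genes, all 5 cargo receptors, all 5 genes of the ULK1 complex and all 7 genes of membrane supply had log2 changes below 0, as did Tecpr1 and 6 of 7 lipidation enzymes. In the PI3-kinase complex 2 of 6 did, and among the ATG4 proteases 2 of 4. Differences between these role groups were not tested. The libraries of SA and WT did not overlap for 12 genes, 11 lower and 1 higher, against 9.71% of all genes lower, 9.6% higher and 19.3% in either direction. The mesothelial and fibroblast markers, given above, were also highest in SA, and their part in these differences was not tested. Without WT1, edgeR called 2 genes as lower, Map1lc3a and Map1lc3b, and without WT2 and SE3 it called 4 as lower, Atg12, Atg4c, Gabarapl1 and Nbr1. The share of all genes called in these fits is not given, so these counts are not set against other genes.

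SE and SA macrophages differed in 0 of the 40 genes by edgeR, where 10.2% of all tested genes were called, 4.77% as higher and 5.42% as lower. DESeq2 called 2 as higher in SE, Gabarapl1 and Sqstm1, where it called 640 of 13751 genes as higher. At an unadjusted p under 0.05, 5 were higher and 1 lower, against 11.4% of all genes higher, 11.3% lower and 22.7% in either direction. SE and SA libraries did not overlap for 4 genes that were higher and 2 that were lower, against 14.2% of all genes higher, 14.1% lower and 28.3% in either direction. The log2 changes were below 0 for 19 of the 40, against 50.6% of all genes. The median log2 change was 0.02 against -0.003 over all genes, but -0.03 with scaling by library totals alone and -0.04 without SE3. Without WT2, edgeR called 3 as higher, Gabarapl1, Sqstm1 and Optn. It called Optn alone without SE1, Sqstm1 alone without SE2, and Vmp1, Atg12 and Gabarapl1 as higher and Pik3c3 as lower without WT2 and SE3. For these fits, too, the share of all genes called is not given. This comparison shares the SA libraries with the one above.

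A missed threshold does not show equal levels. The intervals limit the differences among these libraries, whose spread may be technical, and each holds for a single gene and not for the 40 jointly. The 95% intervals of all 40 genes lay within 1.5-fold in each comparison, against 72.8% of all tested genes between SE and WT, 73.8% between SA and WT and 70.9% between SE and SA. Within 1.25-fold lay 31 of 40 between SE and WT, against 45.0% of all genes, 31 between SA and WT, against 50.8%, and 33 between SE and SA, against 42.5%. The limits of 1.5-fold and 1.25-fold were chosen after the data were seen. Each of the 40 genes had at least 112 counts in every library, while the filter let in genes at a minimum count of 10. Low counts widen intervals, so these shares do not compare genes of like level. The lowest bound in any comparison was -0.52 on the log2 scale, for Map1lc3a between SA and WT, and the highest was 0.44, for Optn between SE and SA. The median standard error of the log2 change was 0.08 for the 40 genes and 0.10 for all tested genes in each comparison.

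**Figure D2:**
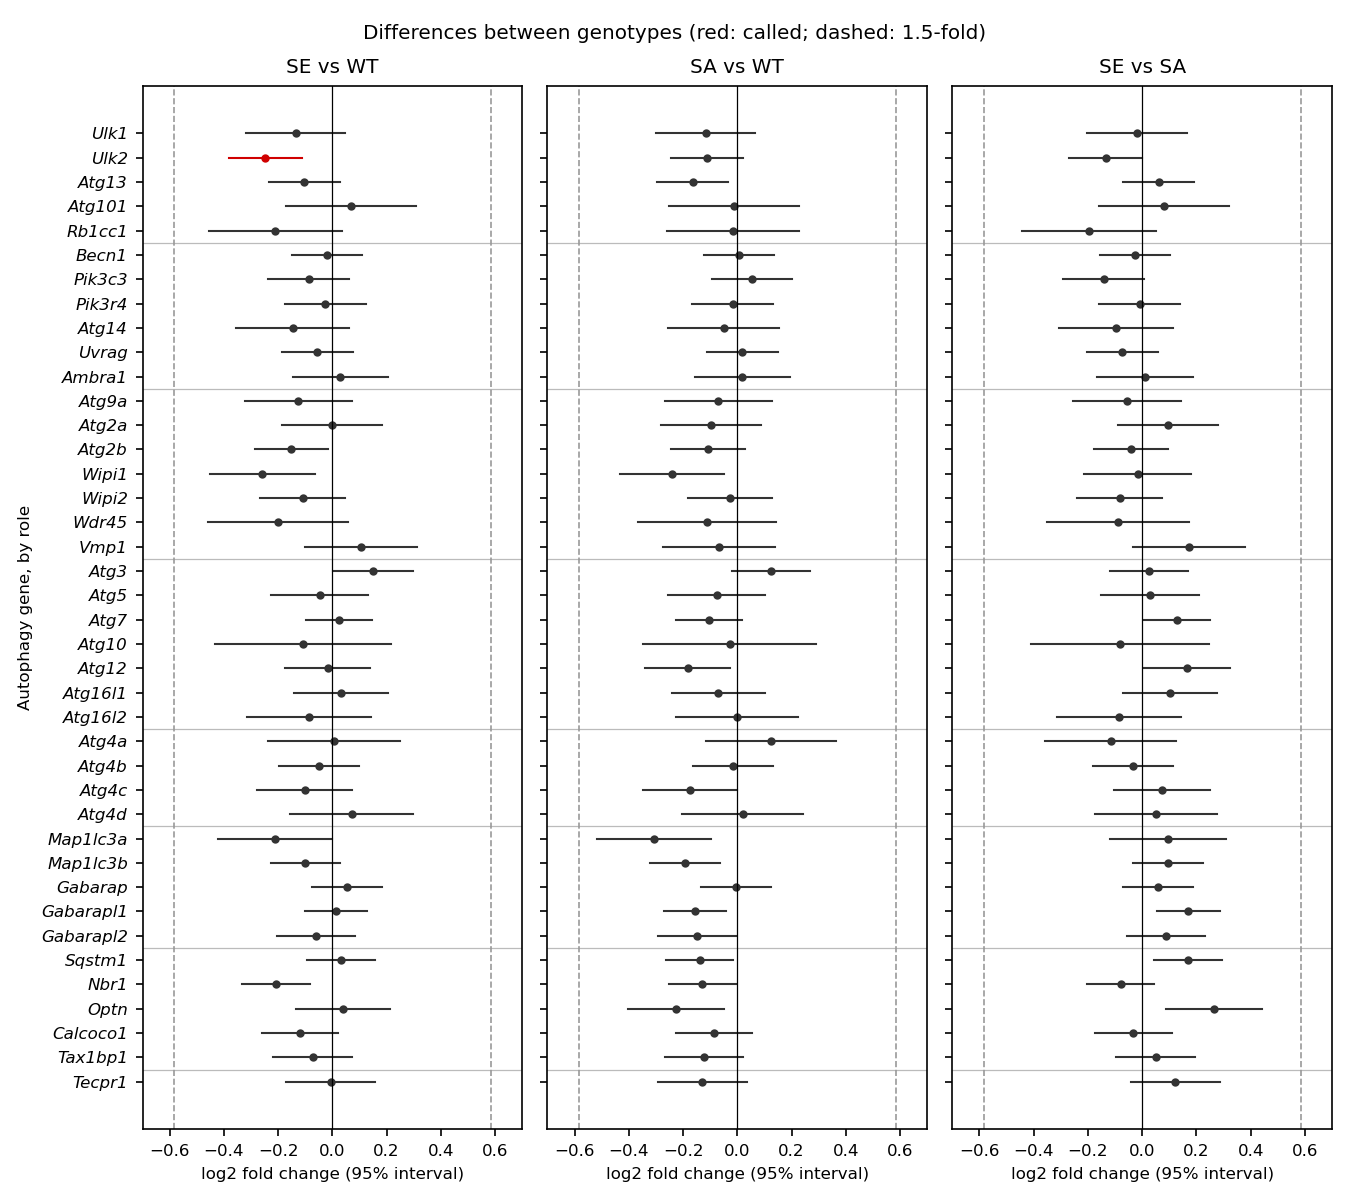
Log2 fold changes with 95% intervals for the 40 genes, grouped by role, in SE vs WT, SA vs WT and SE vs SA. Ulk2 in SE vs WT is the red, called gene, and every interval lies inside the dashed lines at 1.5-fold.

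In the ULK1 complex, Atg13, the subunit that links the kinase to its partners, had the highest level per kilobase. It had 79.8, 76.1 and 86.0 CPM in SE, 80.1, 76.7 and 75.1 CPM in SA, and 86.9, 85.8 and 87.3 CPM in WT. All SA libraries lay below all WT libraries, while SE overlapped WT, and neither difference was called (edgeR adjusted p = 0.2 for SA vs WT and 0.408 for SE vs WT). Rb1cc1, the scaffold FIP200 and the lowest of the complex per kilobase, had 35.3, 42.2 and 32.7 CPM in SE, 39.8, 45.2 and 41.1 CPM in SA, and 47.2, 33.5 and 46.0 CPM in WT. Its low values were those of WT2, SE3 and SE1, and the groups overlapped. Between SE and WT it was called, as lower, in 2 of 18 alternatives, without WT2 and without WT2 and SE3. The edgeR or DESeq2 adjusted p over the alternatives ran from 0.0228 to 0.722, against 0.362 with all libraries. Leaving out WT2 removes the low WT value of Rb1cc1, so these calls are descriptions only. Ulk1, the main starting kinase, averaged 55.2 ± 8.03 CPM in SE, 55.9 ± 2.92 CPM in SA and 60.7 ± 2.89 CPM in WT (SD, n = 3 each), and SE3, at 64.5 CPM, lay above the other SE libraries. Between SE and WT it was called, as lower, in 2 of 18 alternatives, without SE3 and without WT2 and SE3. The edgeR or DESeq2 adjusted p over the alternatives ran from 0.0396 to 0.776, against 0.444 with all libraries. Leaving out SE3 removes the high SE value of Ulk1, so these calls, too, are descriptions only.

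The 6 genes of the class III PI3-kinase complex, which makes the lipid that marks the membrane, had log2 changes of -0.15 to 0.03 between SE and WT, -0.05 to 0.06 between SA and WT and -0.14 to 0.01 between SE and SA. Ambra1, which regulates Beclin 1, had 67.9, 70.2 and 85.7 CPM in SE, 74.5, 70.4 and 77.2 CPM in SA, and 69.9, 79.1 and 70.5 CPM in WT. The high values were those of SE3, WT2 and SA3, and the groups overlapped. Atg14 had 19.4, 21.6 and 22.1 CPM in SE, 19.0, 25.7 and 22.9 CPM in SA, and 23.2, 23.2 and 23.5 CPM in WT. Its SE libraries all lay below WT by little, a log2 change of -0.15 ± 0.10 (edgeR adjusted p = 0.472).

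Among the genes of membrane supply, Vmp1 had 149, 149 and 119 CPM in SE, 120, 134 and 116 CPM in SA, and 139, 109 and 138 CPM in WT. SE3 and WT2 were the low libraries of their genotypes, and the groups overlapped. Without those 2 libraries Vmp1 was called, with SE above SA (edgeR adjusted p = 0.0013, against 0.316 with all libraries). That pair was picked from these same counts, and leaving it out removes the low SE and WT values of Vmp1. Reads of the primary transcript of Mir21a, which lies in an exon of Vmp1, can also count as Vmp1. Atg2b, which moves lipids into the growing membrane, had 36.6, 36.5 and 37.5 CPM in SE, 37.5, 38.3 and 38.1 CPM in SA, and 40.5, 39.7 and 42.4 CPM in WT. Every library of each mutant lay below WT, at log2 changes of -0.15 ± 0.06 in SE (edgeR adjusted p = 0.212) and -0.11 ± 0.06 in SA (edgeR adjusted p = 0.529). Wipi1, which reads the lipid made by the PI3-kinase, likewise had every mutant library below WT, at 14.7 ± 0.929 CPM in SE, 14.8 ± 1.31 CPM in SA and 17.6 ± 0.393 CPM in WT, and was not called (edgeR adjusted p = 0.124 for SE vs WT and 0.198 for SA vs WT). Wipi1, named after its values were seen, had the lowest log2 change of the 40 genes between SE and WT, -0.26 ± 0.09. For Atg2b and Wipi1 both mutants were set against the same WT libraries. The share of all genes with every mutant library below WT is not given.

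**Figure D3:**
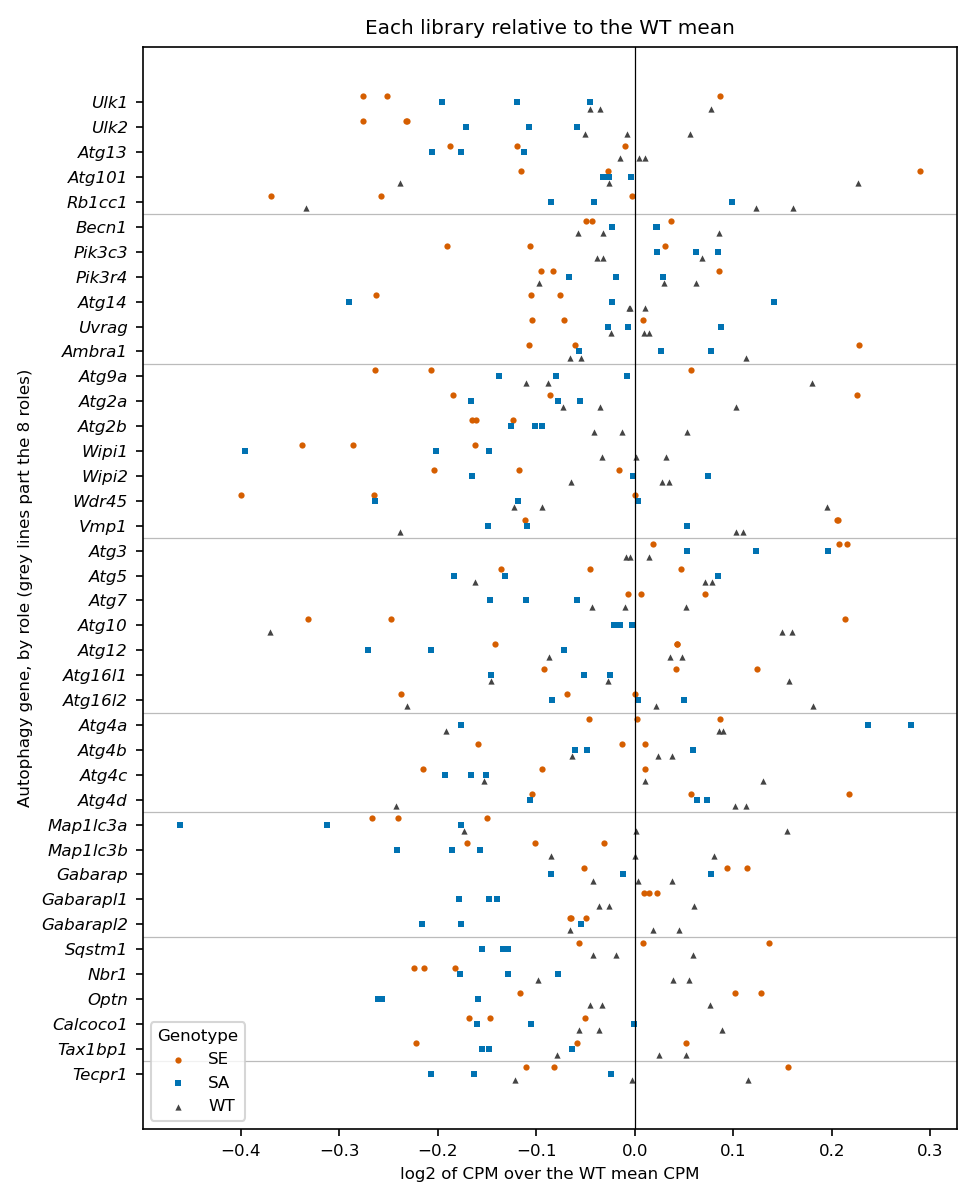
Log2 of each library's CPM over the WT mean for the 40 genes by role, with SE as circles, SA as squares and WT as triangles. Ulk2, Atg2b and Wipi1 show all SE and SA points left of all WT points, and for most other genes the genotypes overlap.

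In the lipidation cascade, Atg5 had 49.4, 52.7 and 46.4 CPM in SE, 46.5, 54.0 and 44.9 CPM in SA, and 53.5, 45.6 and 53.8 CPM in WT, with overlapping groups. Atg16l2 had 14.1, 12.6 and 14.8 CPM in SE, 14, 15.3 and 14.9 CPM in SA, and 12.6, 16.8 and 15 CPM in WT, also overlapping. Atg3 stood higher in each mutant than in WT, the 1 gene of the 40 whose libraries did so without overlap. Both mutants were set against the same WT libraries, and the share of all genes that did so in both is not given. It had 63.8, 64.2 and 56.0 CPM in SE, 57.3, 60.2 and 63.3 CPM in SA, and 55.1, 55.8 and 54.9 CPM in WT. The log2 change was 0.15 ± 0.07 in SE (edgeR adjusted p = 0.256) and 0.12 ± 0.07 in SA (edgeR adjusted p = 0.484). In 1 of 18 alternatives, without WT2 and SE3, it was called, as higher, between SE and WT, at a log2 change of 0.22 (edgeR adjusted p = 0.0386). Leaving out SE3 removes the lowest SE value of Atg3. The highest edgeR or DESeq2 adjusted p over the alternatives was 0.62. Atg3 is named here after its values were seen. Its partner Atg7, whose window also holds TCACGTG, had log2 changes of 0.02 ± 0.06 in SE and -0.10 ± 0.06 in SA. The ATG4 proteases trim ATG8 proteins before lipidation and remove them afterwards. Atg4c had 31.4, 33.8 and 28.9 CPM in SE, 29.4, 30.2 and 29.9 CPM in SA, and 36.7, 30.2 and 33.8 CPM in WT. Atg4d had 20.9, 18.7 and 23.4 CPM in SE, 21.0, 18.6 and 21.1 CPM in SA, and 17, 21.7 and 21.5 CPM in WT. The groups overlapped for each protease.

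In the ATG8 family, Gabarap (ENSMUSG00000018567, mm10 chromosome 11, 69991143 to 69994951) had 417, 423 and 377 CPM in SE, 387, 412 and 368 CPM in SA, and 401, 379 and 392 CPM in WT. The groups overlapped, and the 95% interval of the log2 change was -0.08 to 0.18 between SE and WT and -0.13 to 0.12 between SA and WT. Map1lc3a, the ATG8 protein LC3A and the lowest of the family per kilobase, had 17, 16.7 and 18.1 CPM in SE, 14.6, 17.8 and 16.2 CPM in SA, and 17.8, 22.4 and 20.1 CPM in WT. WT2 was highest, and SA2, the highest of SA, lay just under WT1, the lowest of WT. Its log2 change of -0.31 ± 0.10 between SA and WT was the lowest of the 40 genes in that comparison and was not called (edgeR adjusted p = 0.114). Map1lc3b averaged 172 ± 8.28 CPM in SE, 161 ± 4.81 CPM in SA and 184 ± 10.6 CPM in WT. All SA libraries lay below all WT libraries, a log2 change of -0.19 ± 0.06 (edgeR adjusted p = 0.102).

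Gabarapl1 averaged 157 ± 0.732 CPM in SE, 139 ± 1.94 CPM in SA and 155 ± 5.71 CPM in WT. Its SA libraries lay below all others, at a log2 change of 0.17 ± 0.05 for SE over SA (edgeR adjusted p = 0.0555) and -0.16 ± 0.05 for SA over WT (edgeR adjusted p = 0.154). These 2 differences share the SA libraries. All 5 ATG8 genes had log2 changes above 0 for SE over SA, from 0.06 to 0.17. Per kilobase, Gabarap made up 62.4 ± 1.82% of the summed ATG8 level in SE, 63.7 ± 1.11% in SA and 60.8 ± 0.982% in WT, and Map1lc3b made up 6.49 ± 0.521% in SE, 6.46 ± 0.236% in SA and 7.03 ± 0.497% in WT (SD, n = 3 each). With principal transcript lengths the share of Map1lc3b was 13.8 ± 1.05% in SE, 13.7 ± 0.484% in SA and 14.8 ± 0.974% in WT.

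Among cargo receptors, Sqstm1 (ENSMUSG00000015837, mm10 chromosome 11, 50199366 to 50210827, minus strand) had 529, 506 and 578 CPM in SE, 479, 472 and 481 CPM in SA, and 511, 548 and 519 CPM in WT. The SA libraries lay below all others. The log2 change was 0.17 ± 0.06 for SE over SA (edgeR adjusted p = 0.0823) and -0.14 ± 0.06 for SA over WT (edgeR adjusted p = 0.284). Optn, optineurin, which binds ubiquitin on bacteria and mitochondria, had 23.1, 27.3 and 26.9 CPM in SE, 20.9, 20.9 and 22.4 CPM in SA, and 24.4, 24.2 and 26.4 CPM in WT. Its SA libraries were again below all others, with the highest log2 change of the 40 genes for SE over SA, 0.27 ± 0.08 (edgeR adjusted p = 0.0534). Calcoco1, Tax1bp1 and Nbr1 did not show this order. Calcoco1 averaged 70.0 CPM in SE, 71.6 CPM in SA and 76.1 CPM in WT, with overlapping groups. Tax1bp1 averaged 158 CPM in SE, 153 CPM in SA and 166 CPM in WT, also overlapping. Nbr1 averaged 144 ± 2.18 CPM in SE, 152 ± 5.28 CPM in SA and 166 ± 9.54 CPM in WT, and its SE libraries lay below all others. The log2 change between SE and WT was -0.21 ± 0.06 (edgeR adjusted p = 0.051), just past the threshold. It was called, as lower, in 6 of 18 alternatives, among them DESeq2, the fit without WT2 and the fit without WT2 and SE3 (edgeR or DESeq2 adjusted p over the alternatives 0.00266 to 0.242). Tecpr1, which tethers autophagosomes to lysosomes, had 220, 216 and 259 CPM in SE, 202, 208 and 229 CPM in SA, and 214, 252 and 232 CPM in WT. SE3 and WT2 were the high libraries of their genotypes.

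The largest difference between genotype means exceeded the largest range inside a genotype for 8 of the 40 genes, a share like the 20.4% of all tested genes. Means of 3 libraries vary less than single libraries, which favours the range inside a genotype. The count is therefore not read as a trait of these genes. The spread of the 40 genes had a pattern shared by WT2 and SE3. Against the other 2 libraries of its genotype, a gene that was high in WT2 was mostly high in SE3. With a limit of 0.1 on the log2 scale, chosen after the data were seen, 13 genes (32.5%) were higher in both, 7 (17.5%) were lower in both and 0 went opposite ways. Among the 9553 tested genes with a mean of at least 5 CPM, 18.6% were higher in both, 19.3% lower in both and 3.54% opposite. The share lower in both was thus near that of the 9553 genes. Across genes, Pearson's r of the differences in SE3 and WT2 was 0.835 over the 40 genes and 0.62 over the 9553. Over all 13501 tested genes it was 0.27, so r changed with the level of the genes taken. The 40 genes were not matched in level to the 9553. These values are a description, since the genes share the same 6 libraries and are not independent. Higher in both were Atg101, a subunit that stabilises ATG13 (0.36 in SE3 and 0.36 in WT2), Wdr45, a WIPI protein (0.33 in SE3 and 0.30 in WT2), and Atg9a, the scramblase of ATG9 vesicles (0.29 in SE3 and 0.28 in WT2). Lower in both were Rb1cc1 (-0.24 in SE3 and -0.47 in WT2), Vmp1 (-0.32 in SE3 and -0.34 in WT2) and Atg10, the enzyme that couples ATG12 to ATG5 (-0.31 in SE3 and -0.52 in WT2). So partners in the ULK1 complex, Atg101 and Rb1cc1, went opposite ways in the same libraries. WT2 and SE3 were picked from these same counts and stand together at one end of the third principal component, as given above. Their shared differences therefore partly restate that choice and are no separate result. The part of RNA quality or cell make-up in this pattern was not tested.

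**Figure D4:**
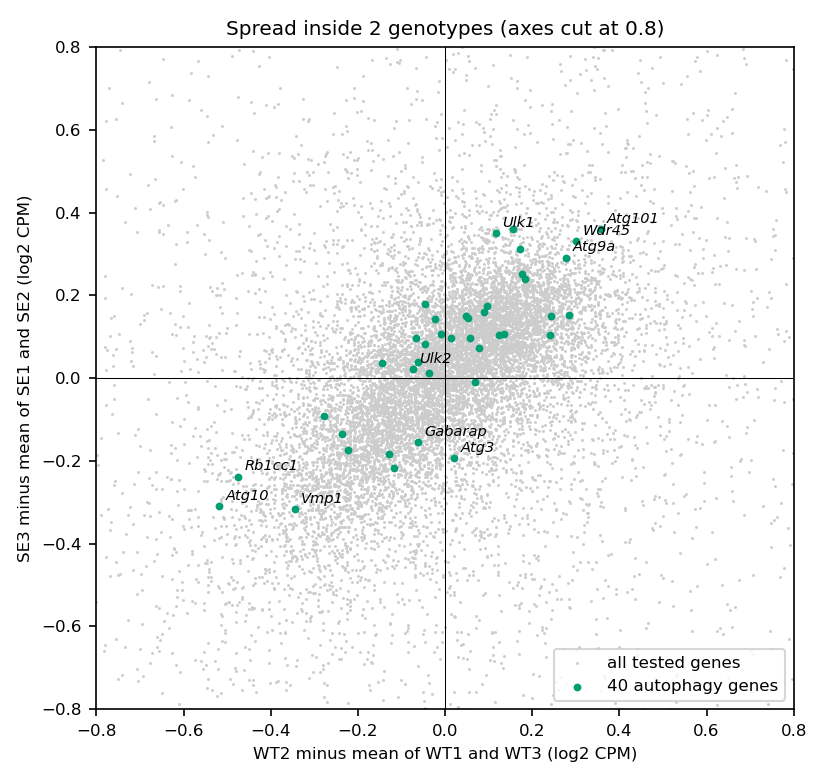
Difference in log2 CPM of SE3 from the mean of SE1 and SE2 (vertical axis) against that of WT2 from the mean of WT1 and WT3 (horizontal axis), for all tested genes in grey and the 40 autophagy genes in green. The autophagy genes run from Rb1cc1, Atg10 and Vmp1 at lower left to Atg101 at upper right, with Pearson's r of 0.835.

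Outside the 40 genes, 85 related genes in 4 lists were examined, of which 82 were tested: regulators, other core and accessory factors, factors of fusion with lysosomes, and receptors for mitochondria and the endoplasmic reticulum. Between SE and WT 3 of 82 were called, all lower, against 5.04% of all genes. Between SA and WT 1 was called higher and 1 lower, against 4.07%. Between SE and SA 3 were called, all lower, against 10.2%. TFEB and TFE3, the transcription factors of lysosomal and autophagy genes, were near level: Tfeb had log2 changes of 0.11 in SE and 0.003 in SA against WT, and Tfe3 0.02 in SE and 0.003 in SA.

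The related genes called in SE were Retreg1, Pink1, Deptor and Tbc1d5. Retreg1, an autophagy receptor of the endoplasmic reticulum, had 33.0, 30.4 and 29.1 CPM in SE, 40.9, 43.3 and 41.4 CPM in SA, and 45.3, 36.3 and 40.3 CPM in WT. All SE libraries lay below the others. It was 1.36-fold lower in SE relative to SA (edgeR adjusted p = 0.00234) and 1.32-fold lower relative to WT (edgeR adjusted p = 0.00815), and the second call ended without WT1 and SE2 (edgeR adjusted p = 0.0983). Pink1, a kinase that marks damaged mitochondria, had 75.2, 74.1 and 80.4 CPM in SE, 83.0, 89.3 and 95 CPM in SA, and 90.6, 103 and 96.3 CPM in WT. It was 1.26-fold lower in SE relative to WT (edgeR adjusted p = 0.00788), a call that ended without SE1 (edgeR adjusted p = 0.0509). Deptor, an inhibitor of mTOR, averaged 18.8 ± 0.966 CPM in SE, 23.5 ± 1.89 CPM in SA and 23.3 ± 1.26 CPM in WT, and was 1.25-fold lower in SE relative to SA (edgeR adjusted p = 0.0234) and 1.24-fold lower relative to WT (edgeR adjusted p = 0.0488). Tbc1d5, which acts on RAB7 in endosomal and autophagic traffic, averaged 74.2 ± 0.274 CPM in SE, 84.6 ± 1.22 CPM in SA and 81.4 ± 0.804 CPM in WT, and was called in SE vs SA (edgeR adjusted p = 0.0374). The Deptor call against WT held in 5 of 18 alternatives, and it ended without WT2, without WT3 and without each SA or SE library (highest edgeR adjusted p = 0.221). The Deptor call against SA ended without SA1, SA2, SE2 or SE3 (highest edgeR adjusted p = 0.128). The Tbc1d5 call held in 8 of 18 alternatives, and it ended without WT3 and without each SA or SE library (highest edgeR adjusted p = 0.125).

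In SA the called genes were Bcl2 and Bnip3l. Bcl2, which blocks apoptosis and binds Beclin 1, had 18.9, 19.4 and 16.9 CPM in SE, 21.6, 21.8 and 21.5 CPM in SA, and 15.5, 14.1 and 15.2 CPM in WT. The groups did not overlap, and it was 1.45-fold higher in SA than in WT (edgeR adjusted p = 0.000737), a call that held in all 18 alternatives (highest edgeR or DESeq2 adjusted p = 0.00746). In SE it was 1.23-fold higher than in WT and was not called (edgeR adjusted p = 0.0532). Bnip3l, the mitochondrial receptor NIX, had 116, 116 and 103 CPM in SE, 100.4, 107 and 98.8 CPM in SA, and 133, 112 and 126 CPM in WT. It was 1.21-fold lower in SA than in WT (edgeR adjusted p = 0.0375), and the call held in 8 of 18 alternatives. It ended without WT1, WT3, SE1 or any SA library in turn (highest edgeR adjusted p = 0.189). The mesothelial and fibroblast markers were highest in the same SA libraries, as given above, and their part in these 2 differences was not tested. Of that list, Msln, Wt1 and Krt19, which mark mesothelium, had 0 counts in every library. Dcn, which marks fibroblasts, had 1, 0 and 2 counts in SE, 10, 5 and 10 in SA, and 0, 1 and 1 in WT. Pdgfra, another fibroblast marker, had 1, 1 and 0 counts in SE, 5, 4 and 6 in SA, and 1, 0 and 1 in WT.

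**Figure D5:**
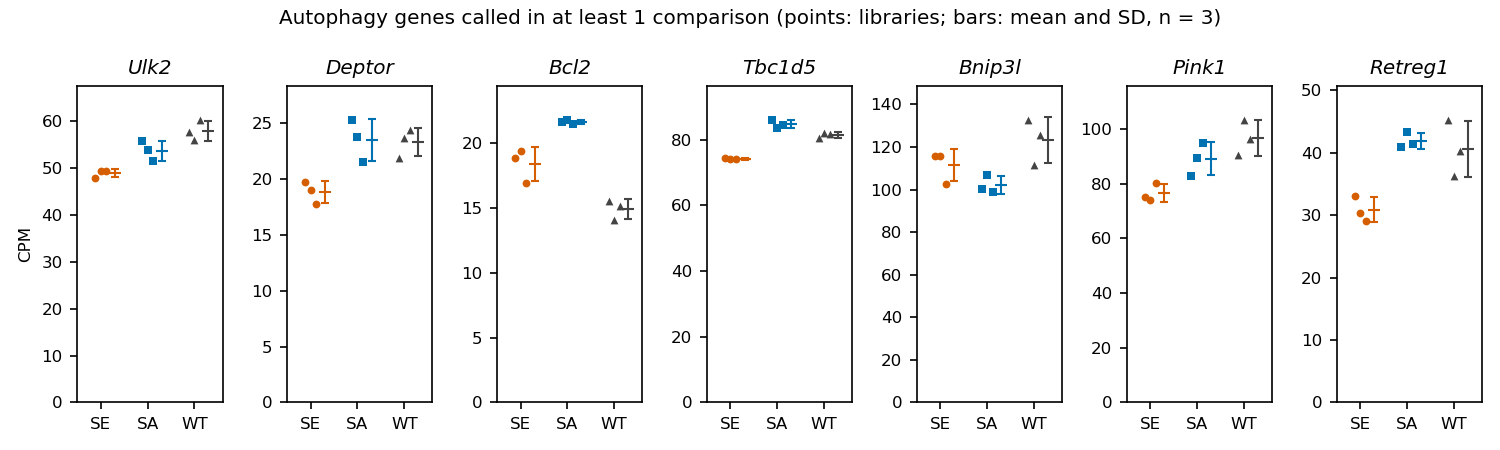
CPM in each library, with mean and SD (n = 3), for Ulk2 and for the 6 related genes called in at least 1 comparison, with SE, SA and WT from left to right and each axis starting at 0. Ulk2, Deptor, Tbc1d5, Pink1 and Retreg1 are lowest in SE, and Bcl2 is highest in SA.

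Some of the 40 values may be shared with other genes. In the GENCODE annotation 15 of the 40 genes have exons that overlap those of another gene, 13 of them on the other strand, and the sources do not give the strand setting of the counting. For 7 genes the overlap covers more than 10% of their exonic bases, among them Becn1 with Cntd1 (43.9%), Atg4d with Kri1 (19.3%) and Sqstm1 with Mrnip (17.3%). Reads in those stretches may be counted for one gene of a pair or for none.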

How the data were processed

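The authors deposited 1 table of unnormalised counts, with Ensembl mouse gene IDs, for the 9 libraries. HISAT2 2.1.0, featureCounts and mm10 are named in the submitters' processing notes. Nothing in the sources gives the annotation, the strand setting or the handling of multiply mapped reads. Of 55401 IDs, 55141 were found in GENCODE M21, which gave symbols, positions and exonic lengths. Library totals of 17286617 to 24618608 counts put 3 counts at 0.122 to 0.174 CPM, for counting error only. Replicate libraries differed by more than sampling noise. All 9 libraries were fitted in R 4.3.3 with edgeR 4.0.16: filterByExpr (minimum count 10, minimum total 15) kept 13501 genes, TMM scaling, and a robust quasi-likelihood fit on genotype with 6 residual degrees of freedom and a 2-sided test. Intervals are 95% from that fit. DESeq2 1.42.0, other scalings and filters, a replicate block and omitted libraries were tried. The fit was tested on simulated data.

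The members and lists were chosen with earlier results of these data known. Values in every library are given for members called in a comparison and for the highest and lowest member per kilobase of each role, and called genes of the 4 related lists are named. Ulk1, Wipi1, Atg3, Atg7, Map1lc3b, Gabarapl1, Nbr1, Calcoco1, Tax1bp1, Tfeb, Tfe3, Mitf and the genes named for WT2 and SE3 fall outside that rule. Promoter windows are from RefSeq (GRCm38.p6).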

Additional observations from a re-analysis of the deposited data

How the results depend on the processing

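No log2 change of a called autophagy gene turned round in any of the 18 alternatives. Between SE and WT, where the main count of called genes was 1, it was 2 with DESeq2 size factors, with library totals alone, with a minimum mean of 5 CPM and with the DESeq2 test, 0 with the 2 genotypes fitted alone, 5 without WT2 and SE3 and 0 without WT1 and SE2, and from 0 to 3 with 1 library left out. Between SA and WT, where it was 0, it was 4 without WT2 and SE3, 1 without WT1 and SE2, and from 0 to 2 with 1 library left out. Between SE and SA, where it was 0, it was 2 with the DESeq2 test, 4 without WT2 and SE3, 1 without WT1 and SE2, and from 0 to 3 with 1 library left out. The cause was not tested. No shares over all genes are given here for the alternatives, so the counts describe these fits only.

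With the replicate block the count was 0 in each comparison, and Ulk2 had an edgeR adjusted p of 0.0633 between SE and WT. The labels number the libraries of each genotype from 1 to 3, but deviations of libraries with the same number correlated at -0.195 to 0.105 and those of other pairs at -0.261 to 0.27, so the numbers are not read as pairs. With 3 libraries a genotype, the median standard error was 0.08 on the log2 scale for the 40 genes, but changes as large as the -0.31 of Map1lc3a between SA and WT did not pass the threshold.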
